A study of Mus musculus with 16 samples.

Results

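The 8 genes described here encode parts of the basement membrane that the primitive endoderm of the mouse embryo lays down, or proteins needed to make it. They are the collagen IV chain genes Col4a1 and Col4a2, the laminin-111 chain genes Lama1, Lamb1 and Lamc1, Hspg2 for the heparan sulfate proteoglycan perlecan, Sparc for a secreted collagen-binding glycoprotein, and Serpinh1 for the collagen chaperone HSP47. They were taken by name, and all 8 of the 14552 genes in the table of normalized read counts that bear these names are members. The libraries were made from mRNA of E14 cells, a mouse embryonic stem cell line. Every group, the untreated one included, carried the genotype Ddx10-AID with Tir1. AID is an auxin-inducible degron, a tag that lets the plant receptor TIR1 direct the tagged protein to the proteasome once auxin is present, and DDX10 is a DEAD-box RNA helicase that the series title ties to 18S rRNA processing.

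The 8 groups had 2 libraries each, 16 in all. They were untreated cells, cells kept for 2, 4, 6 or 12 h or for 1 or 2 days in 500 µM of the auxin indole-3-acetic acid, and cells given 2 days of auxin and then 2 days without it, called withdrawal below. All were grown on gelatin in serum medium that held 1000 U/mL of LIF, the GSK3 inhibitor CHIR99021 and the MEK inhibitor PD0325901, which hold the cells in the undifferentiated state. No label says whether the line is 1 clone, or whether paired libraries were grown as independent cultures. The p-values therefore rest on the spread between these libraries alone, which may be technical. Cells without the tag that were given auxin were not analysed here, so auxin itself and loss of DDX10 cannot be told apart. The questions put to these genes are when under auxin they rose and how far they came back after withdrawal.

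A basement membrane is a thin extracellular sheet in which a laminin polymer and a collagen IV network are joined by nidogen and perlecan. Laminin is secreted as a trimer of an alpha, a beta and a gamma chain, and collagen IV as a trimer of alpha chains whose proline and lysine residues are hydroxylated in the endoplasmic reticulum, where HSP47 binds the folded triple helix. Primitive endoderm and its parietal derivative are known for very high output of laminin-111, collagen IV and SPARC, and undifferentiated stem cells make laminin as well.

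A mean normalized read count of 10 or more, required for testing, was met by 13355 genes, all 8 members among them. The normalized values of a library summed to between 14.9 M and 16.9 M. By the SD of the gene-wise log2 difference the untreated pair lay furthest apart, 0.62 against 0.53 for the 1 day pair and 0.37 to 0.41 in the other 6 groups, with 1090 genes at least 2-fold apart. By the mean squared difference per normalized read, which weights abundant genes, the 1 day pair (23.9) exceeded the untreated pair (20.3), and the others lay between 4.49 and 5.52. Among neighbouring times, 4063 genes were called different between 12 h and 1 day, 866 between 6 and 12 h and 754 between 1 and 2 days. The labels name no batch. A batch that set the libraries of 2 to 12 h apart from the later ones, or from the untreated ones, therefore cannot be told apart from auxin or time. The stem cell label was checked on its markers, and Pou5f1, Nanog and Sox2 had values of at least 13539, 14270 and 6782 in every library. Ddx10 mRNA was 1471 ± 53.4 (SD, n = 2) in untreated cells and 1019 ± 30.5 at 2 days (log2 change -0.53, limma adjusted p = 0.0013). Before that it was higher than untreated, at 1947 ± 141 at 2 h (0.40, 0.025), and both libraries at 4 and 6 h also lay above the untreated pair, with means of 1870 and 1676. The call at 2 h was lost without untreated replicate 1 (0.089) or either 2 h library (0.051 and 0.19), while that at 2 days held in every alternative. The degron acts on the protein, which these libraries do not show.

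Within the untreated cells the 8 genes spanned a wide range of levels. Divided by the length of the longest annotated transcript, the mean normalized read count per kb was 1516.4 for Lamc1, 908.3 for Sparc and 735.5 for Hspg2. It was 165.0 for Serpinh1, 126.4 for Lamb1, 86.0 for Lama1, 75.2 for Col4a1 and 41.9 for Col4a2. The gamma chain message of laminin, perlecan and Sparc were thus the abundant ones at the start, and the collagen IV chains the scarce ones. After 2 days of auxin Sparc came first with 1926.1 per kb, Lamc1 had 1445.0 and Hspg2 1207.2, while Col4a1 had moved up to 479.5 and Col4a2 to 221.0.

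**Figure D1:**
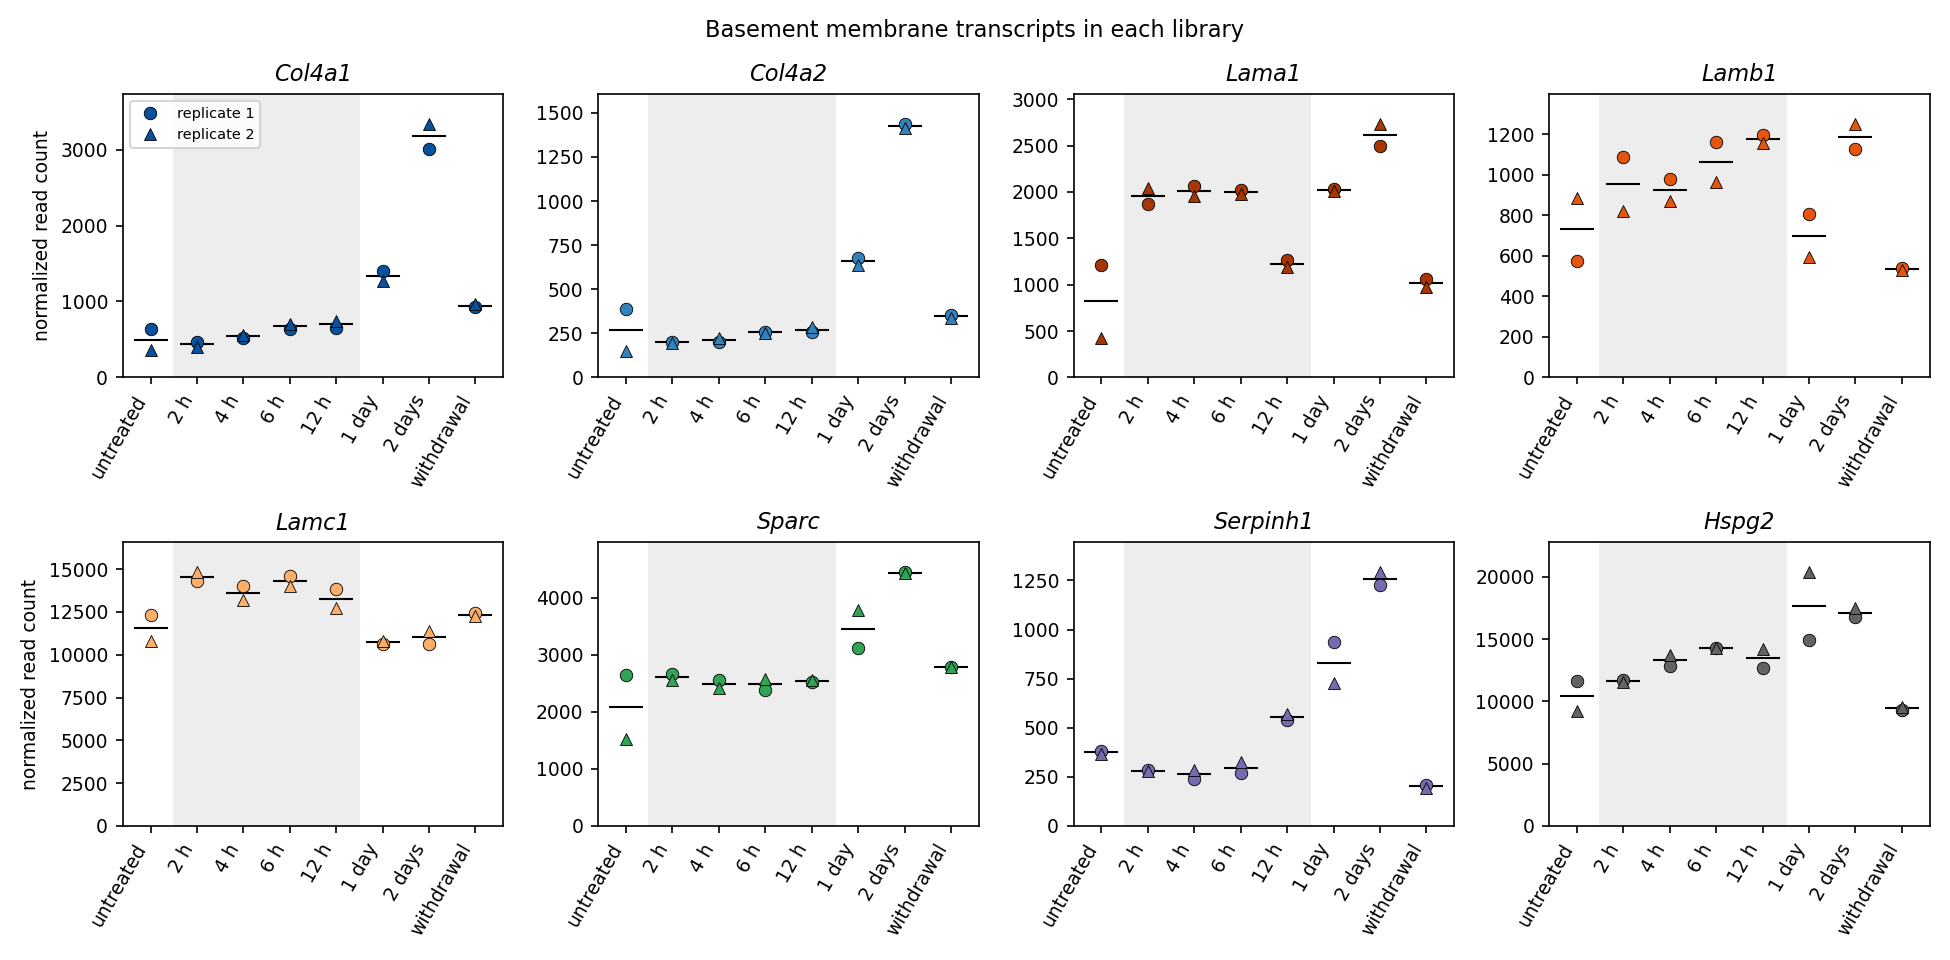
Normalized read count of each of the 8 genes in each library (linear axes from 0), by group; circles and triangles are replicates 1 and 2, the bar is the group mean, and the 2 to 12 h groups are shaded. Col4a1, Col4a2, Sparc and Serpinh1 have their highest libraries at 2 days, Lama1 is already high at 2 h, and Lamc1 stays between 10634 and 14805 throughout.

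Col4a1 and Col4a2 encode the 2 chains of the most common collagen IV trimer and lie head to head on chromosome 8. In GENCODE M21 (GRCm38) Col4a1 covers 11198423 to 11312826 on the minus strand and Col4a2 covers 11312805 to 11449287 on the plus strand, so that their annotated first exons overlap by 22 bases. The sequence of that overlap is shown because both starts share it. A CCAAT box 32 bases before the Col4a2 start, which lies inside the annotated Col4a1 gene, is shown because it is the nearest match before that start. A further CCAAT begins at 11312967, inside Col4a2 and before the Col4a1 start. Both lines are plus-strand sequence from RefSeq on GRCm38.p6, 5′ to 3′. Capitals mark the 22 shared bases in the first line and the CCAAT in the second.
Col4a2 and Col4a1 starts, chr8:11312801-11312830: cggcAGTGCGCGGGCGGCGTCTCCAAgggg
CCAAT before the Col4a2 start, chr8:11312761-11312790: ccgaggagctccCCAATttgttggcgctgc

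In the untreated libraries Col4a1 read 639.7 and 355.6. At 2 h it read 464.7 and 405.8, and at 4 h it was 524.7 and 559.0. By 6 h it read 642.3 and 704.9, by 12 h 649.7 and 745.9, by 1 day 1399 and 1269, and by 2 days 3011 and 3338. The ranges at 2 and 4 h overlapped the untreated one, those from 6 h on did not, and both libraries at 2 days stood above every other library. Against untreated cells the log2 change was 0.54 ± 0.19 (SE) at 12 h (limma adjusted p = 0.044), 1.48 at 1 day (6e-05) and 2.73 at 2 days (1.9e-07), the last a 6.63-fold rise in a 2 against 2 comparison. The call at 12 h was lost without untreated replicate 2 (log2 change 0.12, adjusted p = 0.49) and without either 12 h library (0.08 and 0.21). It was also lost, at an adjusted p of 0.053 to 0.056, when any of 10 other libraries was left out. Between early times Col4a1 was 0.68 higher at 12 h than at 2 h (limma adjusted p = 0.02). The size of this step does not use the untreated pair, but its p-value draws on the spread of all 16 libraries. The call was lost without 2 h replicate 1 or 2 or 12 h replicate 2 (log2 changes of 0.78, 0.58 and 0.58).

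Col4a2 read 388.7 and 152.2 in the untreated libraries and lay between 196.1 and 286.3 in all 8 libraries of 2 to 12 h. It then read 678.6 and 639.8 at 1 day and 1437 and 1414 at 2 days. The early libraries thus lay inside the span of the untreated pair, and the libraries at 1 and 2 days were above all of them. The log2 change was 1.43 ± 0.28 at 1 day (limma adjusted p = 0.0015) and 2.55 ± 0.28 at 2 days (8.1e-06), a 5.84-fold rise. Without untreated replicate 1 these changes were 2.11 and 3.22, and without untreated replicate 2 they were 0.76 and 1.87, all called. The early comparisons of Col4a2 changed sign with the untreated library used: without replicate 1 it was called higher at 4, 6 and 12 h (0.47 to 0.82), and without replicate 2 lower at 2, 4, 6 and 12 h (-0.96 to -0.52). Between 12 h and 1 day Col4a2 rose by 1.28 (adjusted p = 0.0045) and Col4a1 by 0.94 (0.0032). From 1 to 2 days Col4a1 rose by a further 1.25 (0.0023) and Col4a2 by 1.11 (0.034). With only the untreated, 1 day, 2 day and withdrawal libraries in the fit these last steps had adjusted p-values of 0.064 and 0.2. The step of Col4a2 also rose to 0.05 to 0.16 in 12 of the fits that left out 1 library, highest without either 2 day library.

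The collagen IV chains kept a similar proportion to each other. The ratio of Col4a1 to Col4a2 per kb was 1.60 and 2.28 in the untreated libraries and lay between 1.93 and 2.78 in the other 14. At 2 days it was 2.04 and 2.30. Over the 16 libraries the log2 values of the pair had a Pearson r of 0.98, the highest of the 28 pairs of members, as a description only, since all points share libraries and groups.

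The 3 chains of laminin-111 did not move as a unit. Lama1, the alpha chain and the one that assembles last and drives secretion, stood above untreated at the first time measured. It was then level to 6 h, at 0.04 and 0.03 against 2 h. Lamb1 showed a smaller and interrupted rise, and Lamc1 hardly moved. In the untreated libraries Lama1 read 1213 and 426.7. Auxin for 2 h gave 1875 and 2042, for 4 h 2064 and 1961, and for 6 h 2025 and 1980. Then 12 h gave 1270 and 1186, 1 day 2036 and 2015, and 2 days 2491 and 2733. Each library of 2, 4 and 6 h was above both untreated ones, the 12 h pair lay at and just above the higher untreated library, 1 on each side of it, and the 2 day pair was the highest. The log2 change was 1.44 ± 0.30 at 2 h (limma adjusted p = 0.0068), 1.48 at 4 h (0.0047), 1.48 at 6 h (0.0034), 0.77 at 12 h (0.064), 1.49 at 1 day (0.0018) and 1.86 at 2 days (0.00022).

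The size of the Lama1 rise rests on the untreated pair, which differed 2.84-fold for this gene. Without untreated replicate 2 its log2 change at 2 h was 0.69 and at 2 days 1.10, and without untreated replicate 1 these were 2.19 and 2.61. At 12 h the log2 change was 1.52 without untreated replicate 1 and 0.02 without untreated replicate 2. The call at 2 h was lost without 2 h replicate 2 (log2 change 1.38). With the 2 compared groups fitted alone, the calls at 2, 4 and 6 h and at 1 day were lost (limma adjusted p = 0.13, 0.09, 0.083 and 0.056). The dip at 12 h against 6 h was -0.71 (adjusted p = 0.19), but it reached an adjusted p of 9.4e-05 with only the 8 libraries of 2 to 12 h in the fit, which share a narrower spread. It was also called when either untreated library was left out.

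Lamb1, the beta chain, read 574.9 and 886.4 in the untreated libraries, between 818.4 and 1158 at 2 to 6 h, and 1197 and 1157 at 12 h. At 1 day it read 805.3 and 591.3, inside the untreated span, and at 2 days 1125 and 1250, above it. It rose by 0.56 at 6 h (limma adjusted p = 0.049), 0.72 at 12 h (0.011) and 0.73 at 2 days (0.0074), with -0.05 at 1 day (0.87). The fall from 12 h to 1 day was -0.77 (0.0098) and the step from 1 to 2 days 0.78 (0.032). The calls at 12 h and 2 days were lost without untreated replicate 1 (adjusted p = 0.13 and 0.095), and also without 12 h replicate 1 (0.067) and 2 day replicate 2 (0.057), respectively. The call at 6 h was lost when any of 11 single libraries was left out, with adjusted p-values from 0.061 to 0.38. The 1 day pair of Lamb1 was low where that of the collagen IV chains was high, and the fall from 12 h was lost without 12 h replicate 1 (0.063) or 1 day replicate 2 (0.097).

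Lamc1, the gamma chain shared by most laminins, had 12302 and 10808 normalized reads in untreated cells and 10634 and 11388 at 2 days, with overlapping ranges and a log2 change of -0.07 (95% interval -0.22 to 0.09, limma adjusted p = 0.46). At 2 h it read 14298 and 14805, the highest pair of any group, with a log2 change of 0.34 ± 0.07 (adjusted p = 0.0073). At 4, 6 and 12 h the log2 change was 0.24 (0.032), 0.31 (0.0065) and 0.20 (0.043). All 4 of these calls ended when a trend of the log2 values with transcript length was taken out of each library (adjusted p from 0.29 to 0.98). Leaving out single libraries ended them too: 2 h replicate 2 at 2 h (0.079), untreated replicate 2 or either 4 h library at 4 h (0.067 to 0.21), 6 h replicate 1 at 6 h (0.062), and 10 of the libraries at 12 h (0.053 to 0.28).

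With Lamc1 nearly level and its partners rising, the proportion of the laminin chain messages changed. Lamc1 per kb exceeded Lama1 per kb by 12.68 and 31.68 times in the untreated libraries, by 5.34 and 5.21 times at 2 days, and by 14.57 and 15.64 times after withdrawal. Over Lamb1 it stood at 16.23 and 9.25 times in untreated cells, 7.17 and 6.91 times at 2 days and 17.46 and 17.59 times after withdrawal. The 2 day values lay below the other groups in both ratios, and in every library the gamma chain message was the most abundant of the 3. These ratios depend on the transcript lengths used, and change between groups does not.

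**Figure D2:**
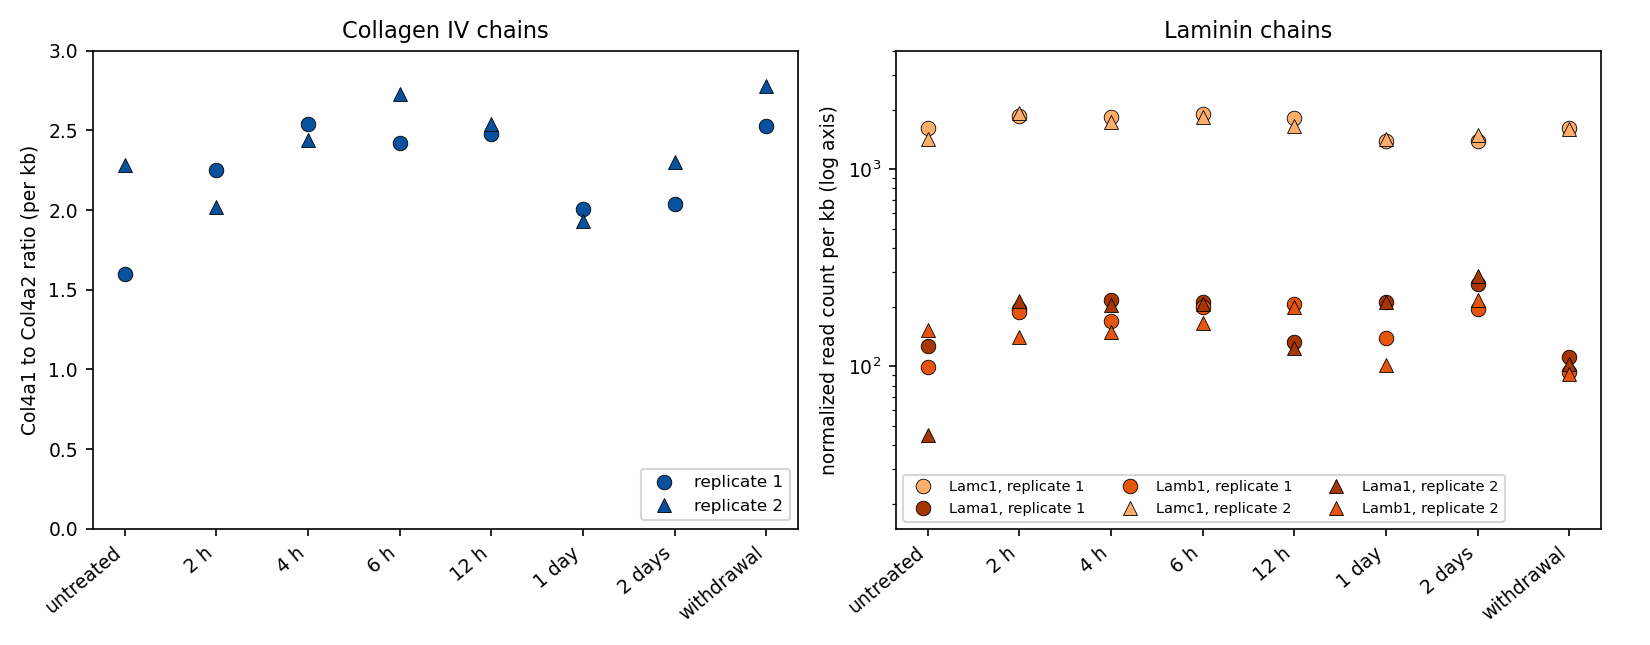
Left, the Col4a1 to Col4a2 ratio of normalized reads per kb in each library (linear axis from 0); right, normalized reads per kb of Lamc1, Lama1 and Lamb1 (log axis), with circles and triangles for replicates 1 and 2. The collagen ratio is 2.04 and 2.30 at 2 days, and Lamc1 stays above the other laminin chains while Lama1 and Lamb1 come nearest to it at 2 days.

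Perlecan, Sparc and HSP47 bind, space or fold the networks above. In the untreated libraries Hspg2 (perlecan) read 11643 and 9231, and it rose to 14255 and 14316 by 6 h, 14933 and 20356 by 1 day and 16753 and 17506 by 2 days. From 4 h to 2 days no library under auxin fell into the untreated range. Its log2 change was 0.46 at 6 h (limma adjusted p = 0.016), 0.38 at 12 h (0.032), 0.75 ± 0.12 at 1 day (0.00042) and 0.72 ± 0.12 at 2 days (0.00035). The 6 h call was lost without untreated replicate 2 (adjusted p = 0.13) or either 6 h library (0.077 and 0.078), and the 12 h call without untreated replicate 2 (0.25) or either 12 h library (0.053 and 0.2). Both were also lost with the length trend removed (0.47 and 0.66), and Hspg2 has the longest transcript of the 8, 14.19 kb.

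Sparc read 2651 and 1527 in the untreated libraries and between 2380 and 2662 in all 8 libraries of 2 to 12 h. It rose to 3108 and 3789 at 1 day and 4439 and 4421 at 2 days. The early values lay near the higher untreated library, and those of 1 and 2 days were all above it. The log2 change was 0.77 ± 0.17 at 1 day (limma adjusted p = 0.0039) and 1.14 ± 0.17 at 2 days (0.00014). Without untreated replicate 1 the change at 2 days was 1.54, and without untreated replicate 2 it was 0.74. Without replicate 1 Sparc was also called higher at 2, 4, 6 and 12 h (0.70 to 0.77, adjusted p from 0.0002 to 0.00062), and without replicate 2 these changes were -0.10 to -0.02, none called.

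Serpinh1 had the closest untreated pair of the 8 genes, 381.4 and 367.8. Under auxin it was first lower, with 283.4 and 278.9 by 2 h, 240.1 and 284.1 by 4 h and 269.6 and 324.5 by 6 h. It then stood at 539.5 and 569.9 by 12 h, 937.3 and 725.3 by 1 day and 1226 and 1291 by 2 days. No library under auxin overlapped the untreated range, with the 2 to 6 h libraries below it and the later ones above it. The log2 change was -0.41 at 2 h (limma adjusted p = 0.059), -0.52 ± 0.14 at 4 h (0.019) and -0.34 at 6 h (0.089). It was 0.57 at 12 h (0.0063), 1.14 at 1 day (3.3e-05) and 1.75 ± 0.14 at 2 days (4.6e-07). The call at 4 h was lost without untreated replicate 1 (0.063) or 4 h replicate 1 (0.17). The turn between 6 and 12 h, 0.91 ± 0.14 (0.0027), where 2.18% of all genes were called higher, was called in all alternatives, and so was that between 2 and 12 h, 0.98 (0.00021).

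The upstream sequences of Serpinh1, Hspg2 and Lamb1 are shown as the 3 members for which the RefSeq promoter table (GRCm38.p6, 250 bases before to 50 after a start) gave a long stretch before the first exon. All 3 were called higher at 2 days with all libraries in the fit. Hspg2 and Lamb1 were first called higher at 6 h and Serpinh1 at 12 h, and Lamb1 was not called at 1 day. Each line runs 5′ to 3′ on the strand of its gene and ends just before the annotated start. Capitals mark GC boxes (GGGCGG, or CCGCCC on the other strand) and CCAAT boxes (CCAAT, or ATTGG).
Serpinh1, minus strand, chr7:99353240-99353489: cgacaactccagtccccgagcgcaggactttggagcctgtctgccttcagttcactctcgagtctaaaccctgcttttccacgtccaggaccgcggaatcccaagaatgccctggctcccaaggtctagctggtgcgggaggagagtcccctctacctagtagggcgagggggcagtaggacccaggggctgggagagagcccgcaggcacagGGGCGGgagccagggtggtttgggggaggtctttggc
Hspg2, plus strand, chr4:137468553-137468768: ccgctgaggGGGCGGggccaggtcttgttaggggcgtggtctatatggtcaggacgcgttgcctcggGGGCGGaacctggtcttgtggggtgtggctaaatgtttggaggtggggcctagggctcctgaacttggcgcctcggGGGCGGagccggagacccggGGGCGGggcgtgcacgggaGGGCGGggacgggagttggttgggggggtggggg
Lamb1, plus strand, chr12:31265043-31265233: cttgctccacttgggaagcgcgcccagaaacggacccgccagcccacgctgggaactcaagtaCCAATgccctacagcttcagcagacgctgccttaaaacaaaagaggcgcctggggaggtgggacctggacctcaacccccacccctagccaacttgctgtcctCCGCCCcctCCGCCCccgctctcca

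Hspg2 holds 5 GC boxes in its 216 bases, Lamb1 2 GC boxes and 1 CCAAT box in 191, and Serpinh1 1 GC box in 250. Over the whole promoter windows, 6 of the 8 members matched the table, and 5 of these 6 hold GGGCGG on either strand, against 61.6% of the 13452 windows of genes in the expression table and 35.7% of all 32851 windows. CCAAT was found in 3 of the 6, those of Col4a1, Col4a2 and Lamb1, against 37.9% and 37.4%. AGATAA, a core that GATA factors bind, was in none of the 6, against 6.4% and 11.2%, and TATAAA in none, against 7.0% and 13.6%. The Col4a1 and Col4a2 windows overlap and share most of their letters, so they are not separate instances. These are matches of letters in a short window and describe no binding.

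**Figure D3:**
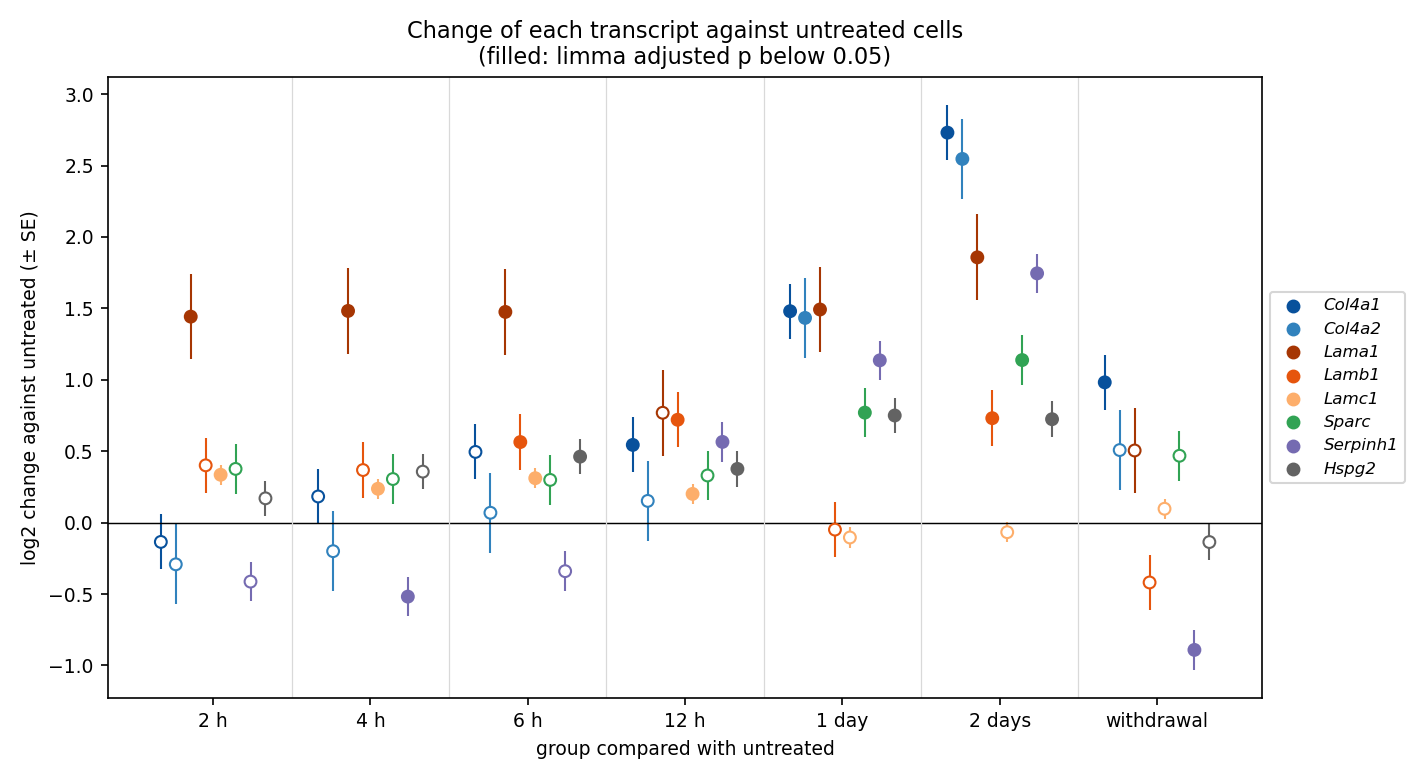
log2 change of each gene against untreated cells (y axis; bars are ± SE from the limma fit) at each auxin time and after withdrawal; filled points have an adjusted p below 0.05. Lama1 is the one member above 1 at 2, 4 and 6 h, Col4a1 and Col4a2 reach 2.73 and 2.55 at 2 days, and after withdrawal Col4a1 is filled above 0 and Serpinh1 below it.

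Counted over the members, 2 of 8 were called higher than untreated at 2 h, where 6.75% of all tested genes were, and 2 at 4 h (8.86% of all genes). At 6 h 4 were higher (10.9%), at 12 h 5 (14.8%), at 1 day 6 (15.9%) and at 2 days 7 (21%). Serpinh1 at 4 h was the only member called lower at any auxin time. Of all genes 8.45% were called lower at 2 h, 10.2% at 4 h, 13.4% at 6 h, 18.3% at 12 h, 17.7% at 1 day and 23.8% at 2 days. The median log2 change of the members was 0.95 at 1 day and 1.44 at 2 days, beside -0.01 at both for all genes. An F-test over the 6 auxin times called all 8 members, beside 65.2% of all genes, with adjusted p-values from 1.1e-07 for Serpinh1 to 0.011 for Lamb1. Of the 7 calls at 2 days, 6 held with each library left out and in every alternative fit, and that of Lamb1 did not.

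With all libraries in the fit, Lama1 was called higher at 2, 4 and 6 h, not at 12 h, and again at 1 and 2 days. Its 12 h change lay near the threshold. It was called with upper quartile scaling (0.82, limma adjusted p = 0.046) or library weights (0.77, 0.031). Lamc1 was called higher at 2, 4, 6 and 12 h only, calls that ended with the length trend removed. Serpinh1 turned between 6 and 12 h, and Col4a2 and Sparc were first called at 1 day. Both of these 1 day calls were lost with the 2 compared groups fitted alone (limma adjusted p = 0.055 and 0.091). When a gene first passed the test depended on the untreated library used for Col4a1, Col4a2 and Sparc, and also for Lamb1 and Hspg2, which were called from 2 h without untreated replicate 2 (0.71, limma adjusted p = 0.024) and from 4 h without untreated replicate 1 (0.53, 0.017). For Col4a1, leaving out untreated replicate 1 gave calls at 4 and 6 h (0.60 and 0.92), and leaving out replicate 2 gave a lower call at 2 h (-0.56). The sizes of the steps between auxin times do not use the untreated pair. Their p-values do, as the fit shares its estimate of spread over all 16 libraries. Against 2 h as the baseline, still with all 16 libraries in the fit, no member was called at 4 h or at 6 h. Of all genes 2.45% and 7.8% were, in either direction, and 1912 and 2898 genes had an unadjusted p below 0.05 in limma. At 12 h Col4a1 and Serpinh1 were called (10.9% of all genes). With only the libraries of 2 to 12 h in the fit, Col4a1 (0.63, adjusted p = 0.0022) and Hspg2 (0.29, 0.0041) were already higher at 6 h than at 2 h. In that fit Col4a2 (0.44, 0.014) and Hspg2 (0.21, 0.012) joined Col4a1 and Serpinh1 at 12 h, and Lama1 was lower (-0.67, 2.5e-05). From 12 h to 1 day 4 members rose, Col4a1, Col4a2, Serpinh1 by 0.57 and Hspg2 by 0.37, where 16.6% of all genes did, and Lamb1 and Lamc1 fell (13.9%). From 1 to 2 days 4 rose, Col4a1, Col4a2, Lamb1 and Serpinh1, where 1.57% of all genes did.

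Several of these neighbouring steps rested on single libraries. The 12 h to 1 day step of Serpinh1 had an adjusted p of 0.062 without 12 h replicate 1 and 0.052 without 1 day replicate 1, and that of Hspg2 0.22, 0.059 and 0.35 without 12 h replicate 1, 12 h replicate 2 and 1 day replicate 2. The fall of Lamc1 in that step, -0.30, had 0.077 without 12 h replicate 1. The 1 to 2 day step of Serpinh1, 0.61 (limma adjusted p = 0.021), had 0.097, 0.09 and 0.15 without 1 day replicate 2, 2 day replicate 1 and 2 day replicate 2. That of Lamb1 had 0.15, 0.1 and 0.21 without the same libraries.

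After 2 days without auxin, 7 of the 8 members were lower than at 2 days of auxin, where 19.1% of all genes were, and the ranges did not overlap for any of the 7. Serpinh1 read 210.9 and 192.5, a fall of -2.64 ± 0.14 (limma adjusted p = 2.2e-08) to below its untreated level. Col4a2 read 355.5 and 337.4 (-2.04), Col4a1 924.3 and 962.8 (-1.75), Lama1 1065 and 979.9 (-1.35), and Lamb1 539.1 and 528.5 (-1.15). Hspg2 read 9299 and 9578 (-0.86) and Sparc 2784 and 2781 (-0.67, adjusted p = 0.0074, the largest of the 7). Lamc1 read 12408 and 12253, above its 2 day pair, with a log2 difference of 0.16 (0.078). All 7 calls held with each library left out and in every alternative.

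Against untreated cells, the withdrawal group differed in 2 members. Col4a1 remained higher by 0.98 ± 0.19 (limma adjusted p = 0.016), where 1.72% of all genes were higher, and Serpinh1 was lower by -0.89 ± 0.14 (0.0055), where 1.07% were lower. Col4a1 lost this call without either withdrawal library (0.1 and 0.12) and Serpinh1 without withdrawal replicate 2 (0.062). Both lost it when the 2 groups were fitted alone (0.33 and 0.22) or when the fit held only the untreated, 1 day, 2 day and withdrawal libraries (0.16 and 0.083). The other 6 were not called, with 95% intervals of -0.10 to 1.11 for Col4a2, -0.14 to 1.15 for Lama1, 0.09 to 0.84 for Sparc, -0.84 to -0.001 for Lamb1, -0.40 to 0.13 for Hspg2 and -0.06 to 0.25 for Lamc1.

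How complete the return was depends on which untreated library is taken as the baseline. Without untreated replicate 1, Col4a2 (1.18, adjusted p = 0.00013), Lama1 (1.26, 1.1e-05) and Sparc (0.86, 0.00026) were also called higher after withdrawal, and Lamb1 lower (-0.73, 0.034). Without untreated replicate 2 these 4 had -0.17, -0.25, 0.07 and -0.11, and Col4a1 stayed higher by 0.56 (0.034). On the log2 scale, the share of the 2 day rise that was gone after withdrawal was 64.0% for Col4a1, 58.9% for Sparc, 72.8% for Lama1 and 80.1% for Col4a2. Over fits that left out 1 library it ran from 55.4% to 75.7%, 43.7% to 90.6%, 51.8% to 122.4% and 63.3% to 108.9%, with the extremes from leaving out an untreated library. It was above 100% for Hspg2, 118.7% (96.4% to 154.4%), Lamb1, 157.3% (110.2% to 274.3%), and Serpinh1, 151.1% (147.3% to 154.8%), whose withdrawal means lay below the untreated mean. These shares have no test.

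**Figure D4:**
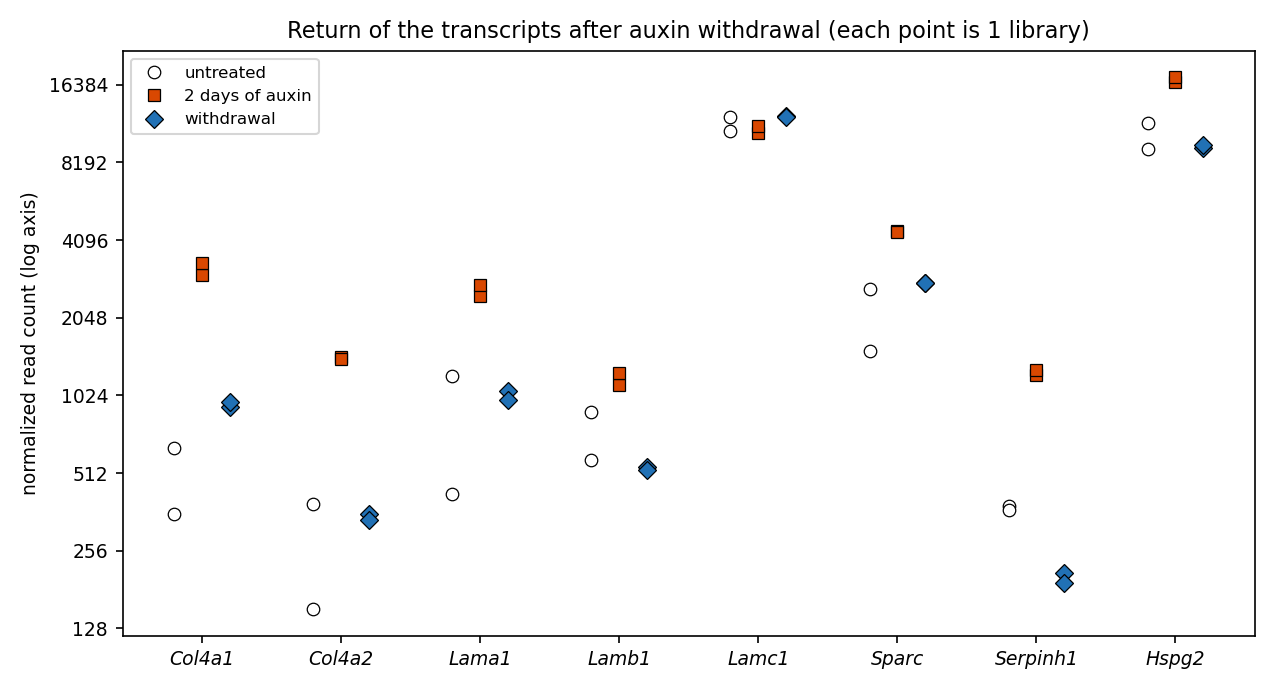
Normalized read count of each gene (log axis) in the untreated (open circles), 2 day auxin (squares) and withdrawal (diamonds) libraries. For 7 genes both withdrawal libraries lie below both 2 day libraries; for Col4a1 (924.3 and 962.8) and Sparc (2784 and 2781) they lie above the untreated pair, and for Serpinh1 (210.9 and 192.5) and Lamb1 (539.1 and 528.5) below it.

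Other components of basement membranes moved partly with the 8 genes. Of 32 further components listed, 24 were in the table and 21 passed the filter, and at 2 days 9 were higher and 2 lower (21% and 23.8% of all genes; median log2 change 0.51). Nid1, which links laminin to collagen IV, read 4688 and 2946 in untreated cells and 8989 and 9803 at 2 days (1.34, limma adjusted p = 8.5e-06). Fn1, fibronectin, read 26348 and 27044 and then 53121 and 60366. Nid2 rose by 0.43 and Fbln2, at a low level, by 1.56. Papln and Col4a5, counted among the 9, reached the mean of 10 only through the 2 day libraries (means of 9.1 and 8.2 without them), so their values are a description. Fbln1 (-0.46) and Egfl6 (-0.58) were lower, and the call of Egfl6 was lost without untreated replicate 2 (adjusted p = 0.1) or 2 day replicate 1 (0.14). After withdrawal 14 of the 21 were lower than at 2 days and 2 higher (19.1% and 22.2% of all genes), among the lower ones Nid1 (-0.73) with 5618 and 5729 and Fn1 (-0.75) with 32994 and 34216.

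Of 29 genes whose products modify, fold or export collagen, 26 were tested, and at 2 days 8 were higher and 3 lower (median 0.24). The shares over all genes were 21% and 23.8%. Plod2, a lysyl hydroxylase, read 434.0 and 458.2 in untreated cells, and reached 759.3 and 745.6 by 4 h, 1297 and 1154 by 12 h and 1630 and 1754 by 2 days. Its log2 change at 2 days was 1.92 (limma adjusted p = 2.6e-08), and after withdrawal it read 770.6 and 818.0, lower than at 2 days by -1.09 and above both untreated libraries. The prolyl 3-hydroxylase gene P3h1 (0.73), Plod3 (0.57), the COPII coat gene Sec23a (0.66) and Creb3l2 (1.52), a transcription factor that controls Sec23a, were also higher at 2 days. The lysyl oxidase gene Loxl2 (-2.36), Rcn3 (-1.55) and Sdf2l1 (-0.67) were lower. Of 18 chaperone and stress genes of the endoplasmic reticulum, 4 were higher, 7 lower and 7 not called (median -0.14). Of all genes 21% were higher and 23.8% lower. Hsp90b1 (-0.78) and Hspa5 (-0.38) were among the 7 lower ones, so Serpinh1 rose while these 2 general chaperones fell and 4 genes of the list rose.

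Of 18 tested receptors for matrix, 5 were higher and 3 lower at 2 days (median 0.18), beside 21% and 23.8% of all genes. Sdc4, a heparan sulfate syndecan, rose by 2.41 and Itga6, an alpha chain of laminin-binding integrins, by 0.55. Itga9 (-3.03), Bcam (-1.09), which binds laminin alpha 5, and Itga5 (-0.86) were lower. Itgb1, the beta chain of most of these integrins, read 2747 and 2751 in untreated cells and 2493 and 2565 at 2 days and was not called.

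Gata6, Gata4, Sox17 and Sox7, transcription factors that define primitive endoderm, were low in every group. Gata6 read 1.24 and 4.06 in untreated cells, and between 6.14 and 20.1 from 2 h to 1 day. The 2 day libraries read 24.0 and 11.1, and the withdrawal libraries 2.24 to 10.7. It reached the mean of 10 only through the 2 day libraries (9.8 without them). Its values, and its call at 2 days, are thus a description. That call was lost without untreated replicate 1 (log2 change 1.78) or 2 day replicate 1 (1.84). Gata4 read 24.1 and 23.6 and then 36.1 and 44.4 at 2 days, not called. The receptor gene Pdgfra read 11.2 and 26.3 in untreated cells. At 12 h it averaged 42.4, a log2 change of 1.22 (limma adjusted p = 0.036), and at 1 day 43.8 (1.28, 0.029), but it read 29.2 and 33.2 at 2 days, not called. Both calls were lost without untreated replicate 1 (0.29 and 0.23), that at 12 h also without either 12 h library (0.055 and 0.22), and that at 1 day without 1 day replicate 1 (0.13). Sox17 read at most 13.7 and Sox7 at most 20.7 in any library, both below the filter, and Foxa2 was not analysed here. Of 6 tested genes of this list, which also holds Pdgfra, Hnf4a and Sall1, 1 was higher at 2 days, Gata6, and 1 lower, Sall1. The shares over all genes were 21% and 23.8%. The summed level of the list's 9 genes in the table was 3790.6 to 3840.3 in untreated libraries and 2987.7 to 3098.3 at 2 days, nearly all of it Sall1.

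Of 17 tested surface, transport and cytoskeletal markers of extraembryonic endoderm, 4 were higher and 1 lower at 2 days (median 0.32). The shares over all genes were 21% and 23.8%. Krt19 (2.82) and Cst3 (1.05) were among the higher ones. Krt8 (-0.62) was lower, a call lost without untreated replicate 1 (log2 change -0.36) or 2 day replicate 1 (-0.52). Dab2, an endocytic adaptor of endoderm, read 29.3 and 22.3 in untreated cells and 47.3 and 57.9 at 2 days (1.01, limma adjusted p = 0.047), and its call was lost when any of 10 single libraries was left out (0.053 to 0.2). The summed level of the list, 21 genes in the table, was 12770.8 to 17136.5 in untreated and 16588.4 to 16666.8 in 2 day libraries. Afp, Ttr and Apoa1 were not analysed here. The name given to the 8 genes thus describes where they are known to be made in quantity: all 8 were well above the filter in untreated stem cells, and Gata6, Gata4, Sox17 and Sox7 were at or below 44.4 in every library. In bulk libraries a change in the number of cells of a type and a change in RNA per cell cannot be told apart.

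Markers of other cell types were mixed at 2 days, when 21% of all tested genes were higher and 23.8% lower. Of 8 tested fibroblast markers 4 were higher and 1 lower (median 0.72), the 1 lower being Thy1 (-1.68). Col5a2, counted among the 4, averaged 5.36 in untreated and 56.7 in 2 day libraries and reached the mean of 10 only through the latter (9.3 without them), so its values are a description. The summed level of the 8 in the table was 703.1 to 720.8 in untreated and 1059.6 to 1144.7 in 2 day libraries. Of 8 trophoblast markers 4 were higher and 1 lower (median 0.54), with Cdh3 at 2.52 and Tfap2c at 1.38, and their summed level went from 3466.9 to 3881.0 to 6533.8 to 6550.8. Of 5 neural markers 2 were higher and 1 lower, and of 6 mesoderm and endoderm markers 2 and 1. Of 16 stem cell markers most of those called rose, with 9 higher and 3 lower (median 0.22). Pou5f1 was among the 3 lower ones (-0.32). No list lacked all its markers, several defining ones being near 0, and the part of any other cell type in the rise of the 8 genes was not tested.

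**Figure D5:**
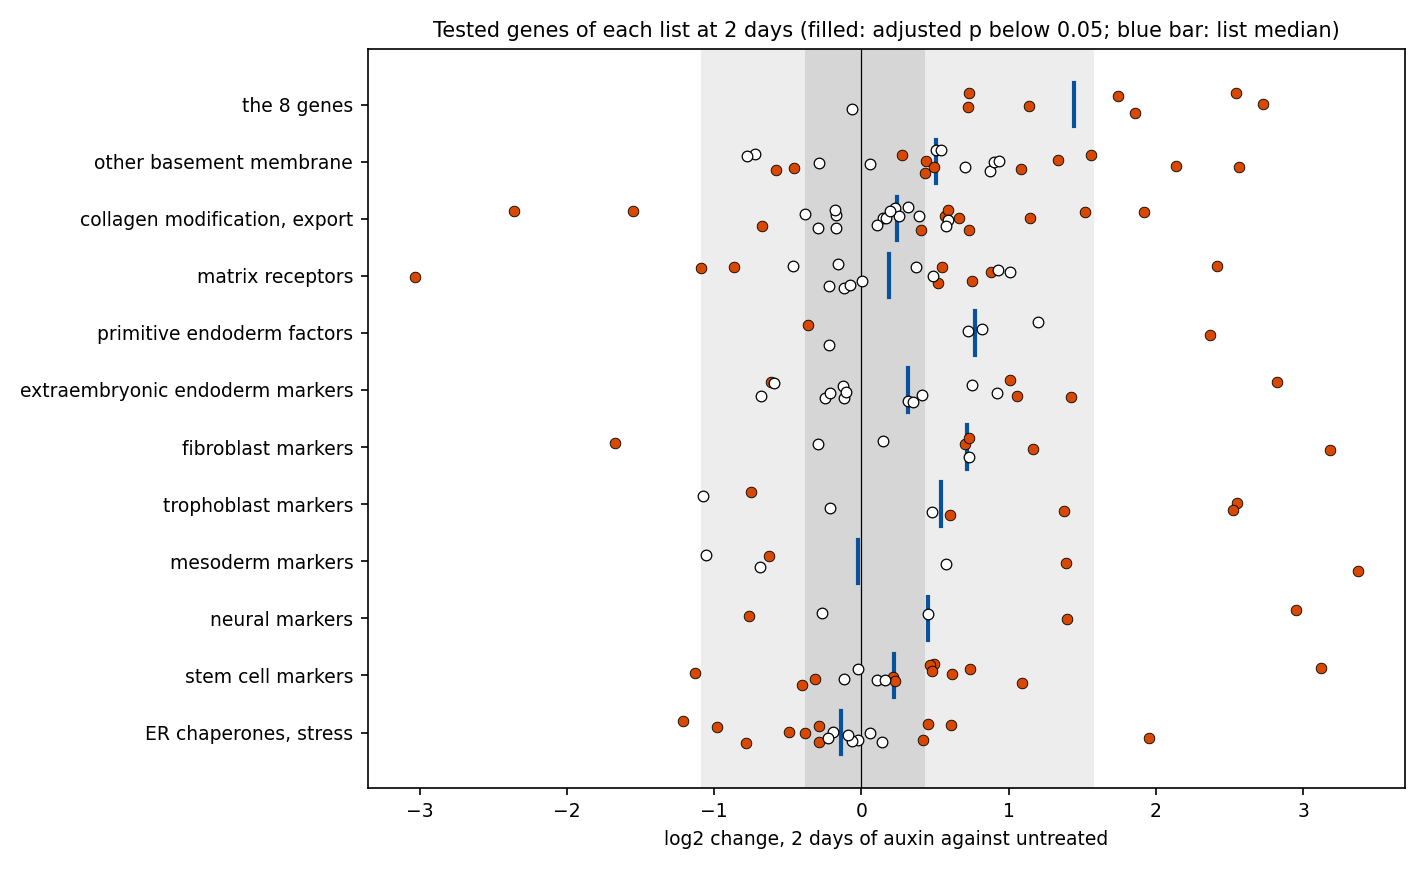
log2 change at 2 days against untreated (x axis) of each tested gene of the 8 members and of 11 other lists; filled points have an adjusted p below 0.05, the blue bar is the list median, and the dark and light bands hold the middle 50% and 90% of all tested genes. The median of the 8 genes is 1.44, that of other basement membrane genes 0.51, and the lists of other cell types have members on both sides of 0.

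Outside these lists, the genes whose log2 values over the 16 libraries were most like the mean profile of the 8 members were Parm1 (Pearson r = 0.97), Hs6st1 (0.969), Gramd1a (0.965), Slc12a7 (0.963) and Rnpepl1 (0.96), followed by Pga5, Cers2, Triml1, Cdh1 and Cldn4 (0.956 to 0.958). Hs6st1 encodes a 6-O-sulfotransferase of heparan sulfate and averaged 2400 in untreated, 4720 in 2 day and 2420 in withdrawal libraries. Cdh1, E-cadherin, averaged 6090, 14800 and 7340. Their log2 changes at 2 days ran from 0.69 for Triml1 to 3.28 for Parm1. That all 10 rose follows from how they were chosen, as the members' mean profile is highest at 2 days. The correlations describe these libraries and share their groups, and they show neither common control nor common function.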

How the data were processed

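One table of all genes was used, with 1 column per library. Its values, normalized read counts in this text, are treated as a signal: the authors divided gene-level counts by 1 factor per library, as judged from the title of the deposited table and from values that are not whole numbers. Per the submitters' processing notes, Trim Galore, STAR, RSEM and DESeq2 were used with the build mm10. For the versions and roles of these tools, the annotation and the choice of 14552 genes, the answer is not given in the sources used here. Raw totals were not used here, so no counting intervals are given, and no count model was run.

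Values were analysed as log2(value + 1), which understates changes of low genes. Genes averaging 10 or more across the 16 libraries were tested, 13355 in number. One limma 3.58.1 model in R 4.3.3 held a mean per group, with an intensity trend and 8 residual degrees of freedom. P-values were adjusted by Benjamini-Hochberg over all tested genes within each of 15 comparisons, and an adjusted p below 0.05 was called. Standard errors of log2 changes had a median of 0.158. The script was tested on simulated data.

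Gene positions and transcript lengths came from GENCODE M21 (GRCm38), in which 14467 gene identifiers were found and 85 were not. Promoter windows came from RefSeq (GRCm38.p6), in which 6 of the 8 members matched; Lama1 and Lamc1 did not. Motifs were searched on both strands.

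Named are the 8 genes, 15 fixed genes, up to 4 genes of each list with the smallest p at 2 days, and the 10 genes of mean at least 50 most correlated with the members; other list genes with values were chosen after these were seen. Members, lists and tests were chosen with earlier results of these data known. Lists held other basement membrane, collagen processing, receptor, endoplasmic reticulum, primitive endoderm, extraembryonic endoderm, fibroblast, trophoblast, mesoderm, neural and stem cell genes. Alternatives were pseudocounts of 0.5 and 5, no filter or a filter at 50, scaling by trimmed means of M values or by upper quartiles, a replicate block, fits of fewer groups, library weights, removal of a trend with transcript length, and each library left out in turn.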

Additional observations from a re-analysis of the deposited data

How the results depend on the processing

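With 2 libraries a group, calls near the threshold depend on single libraries, and the untreated pair sets the size of every change measured from it. Of the members' calls at 2 days against untreated, 6 held in every alternative, as did the 7 falls after withdrawal; calls at 2 to 12 h and between neighbouring times often did not, and the cause was not tested. Raw depth was not used here, so what depth limits is known only for low genes such as Gata6, for which few reads lie behind a value.

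Leaving out 1 library at a time, members called higher than untreated ranged from 0 to 3 at 2 h, 1 to 6 at 4 h, 1 to 6 at 6 h, 1 to 7 at 12 h and 6 to 7 at 2 days, with 6 at 1 day throughout, and members lower from 0 to 2 at 2 h, 0 to 2 at 4 h, 0 to 1 at 6 h and 0 to 1 at 12 h. After withdrawal 0 to 4 were higher and 0 to 2 lower than untreated, and 0 to 1 higher than at 2 days. Between times, 0 to 2 were higher at 6 h than at 2 h, 1 to 3 higher and 0 to 1 lower at 12 h than at 2 h, 0 to 1 lower at 12 h than at 6 h, 2 to 6 higher and 0 to 2 lower at 1 day than at 12 h, and 1 to 6 higher at 2 days than at 1 day. In the lists at 2 days, higher and lower genes ranged from 6 to 11 and 1 to 4 for other basement membrane genes, 5 to 10 and 3 to 5 for collagen processing, 0 to 2 and 0 to 1 for primitive endoderm factors, 2 to 6 and 0 to 2 for extraembryonic endoderm, 3 to 4 and 1 to 2 for trophoblast, 1 to 2 and 0 to 1 for mesoderm, and 2 to 3 and 1 to 2 for neural markers. Higher genes ranged from 3 to 6 for receptors, 2 to 4 for fibroblast and 5 to 9 for stem cell markers, and lower genes from 5 to 7 for stress genes. From 2 days to withdrawal 0 to 2 other basement membrane genes were higher and 9 to 15 lower, and 4 to 5 collagen processing genes higher and 5 to 9 lower. The shares of the rise gone stand in the report.

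With the 2 compared groups fitted alone, members higher than untreated numbered 0 at 2, 4 and 6 h, 2 at 12 h, 3 at 1 day and 0 after withdrawal, and members lower 0 at 4 h and 0 after withdrawal. In these fits 1 member was higher after withdrawal than at 2 days, 2 were higher at 6 h and 4 at 12 h than at 2 h, 1 was lower at 12 h than at 2 h and than at 6 h, 1 lower at 1 day than at 12 h, and 0 higher at 2 days than at 1 day. For the lists at 2 days they gave 1 other basement membrane gene lower, 0 extraembryonic endoderm markers lower, 1 mesoderm marker higher and 0 lower, and 2 fibroblast and 4 stem cell markers higher. The 2 to 12 h libraries fitted together gave 2 members higher at 6 h and 4 at 12 h than at 2 h, and 1 lower at 12 h than at 2 h and than at 6 h. The untreated, 1 day, 2 day and withdrawal libraries fitted together gave 0 members higher and 0 lower after withdrawal than untreated, 0 higher at 2 days than at 1 day, and 1 other basement membrane gene higher after withdrawal than at 2 days. In the lists at 2 days that fit gave 1 other basement membrane gene, 0 primitive endoderm factors, 0 extraembryonic endoderm and 0 mesoderm markers lower, and 2 extraembryonic endoderm, 1 mesoderm, 2 fibroblast and 5 stem cell markers higher. Library weights gave 1 member higher and 0 lower at 4 h, 1 higher after withdrawal than at 2 days, 2 higher at 6 h and 4 at 12 h than at 2 h, 1 lower at 12 h than at 2 h and than at 6 h, and 2 higher at 2 days than at 1 day. At 2 days the weights left 1 other basement membrane gene lower, and 0 primitive endoderm factors, 2 extraembryonic endoderm, 1 mesoderm and 2 fibroblast markers higher. Removing the length trend left 1 member higher at each of 2, 4 and 6 h, 2 at 12 h, 1 higher after withdrawal than at 2 days and 1 lower at 1 day than at 12 h, and turned Lamc1 at 12 h to -0.005 (adjusted p = 0.98). A filter at a mean of 50, which tests fewer genes, left at 2 days 0 primitive endoderm factors, 1 extraembryonic endoderm, 0 mesoderm and 2 fibroblast markers higher and 0 fibroblast markers lower. Trimmed means of M values gave 1 member lower at 2 h, and upper quartiles 1 member higher at 6 h than at 2 h and 0 mesoderm markers lower at 2 days. Under no scaling was the median log2 change of all genes larger in size than 0.069 in any comparison. On the linear scale the share of the rise gone was 83.3% for Col4a1, 93.4% for Col4a2, 88.7% for Lama1 and 70.4% for Sparc. It was 114.9% for Hspg2, 143.1% for Lamb1 and 119.6% for Serpinh1.

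Libraries with the same replicate number did not deviate together: the correlation of their deviations from group means ran from -0.06 to 0.07 over 28 pairs of groups. With the replicate number as a block, Lamb1 at 6 h (adjusted p = 0.056) and Col4a1 at 12 h (0.051) lost their calls, and 2779 genes were higher and 3140 lower at 2 days, against 2806 and 3179. Over all alternatives, genes higher than untreated numbered 138 to 1422 at 2 h (902 as reported), 337 to 1632 at 4 h (1183), 587 to 1839 at 6 h (1462), 1095 to 2395 at 12 h (1976), 682 to 2279 at 1 day (2125), 1941 to 3212 at 2 days (2806) and 1 to 721 after withdrawal (230). Genes lower numbered 270 to 1474 (1128), 394 to 1733 (1365), 824 to 2128 (1791), 1718 to 2766 (2446), 537 to 2605 (2359), 2305 to 3484 (3179) and 0 to 385 (143).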
